A study of Homo sapiens with 30 samples.

Results

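The comparison described here shows what 15 min of dexamethasone did to nascent transcription in A549 cells that had been kept in the type I PRMT inhibitor MS023 for 7 days. It sets the 2 libraries of cells given MS023 and then dexamethasone against the 2 libraries of cells given MS023 alone. These are 4 of the 30 libraries of the series, compared over all 58780 genes of the deposited count table. A549 is a human lung adenocarcinoma cell line, and PRO-seq (precision run-on sequencing) maps RNA polymerases engaged on a gene, so it reads ongoing transcription and not stored mRNA. MS023 was used at 1 µM and dexamethasone (Dex) at 100 nM, and the labels give 0.01% DMSO for every group used here. The same 15 min of Dex was also given to cells without an inhibitor (2 libraries, against 2 untreated) and to cells kept for 7 days in 1 µM of the PRMT5 inhibitor GSK591 (2 libraries, against 2 with GSK591 alone). A further 2 libraries had MS023 for 7 days and then Dex for 3 h. Nothing in the labels says that replicates were separate cultures, so the p-values measure only the spread between these libraries.

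Dex is a synthetic glucocorticoid. It binds the glucocorticoid receptor, a transcription factor held in the cytoplasm by chaperones, which then moves to the nucleus and binds response elements that often lie far from the genes it controls. In lung epithelium it induces genes that restrain inflammatory signalling, such as phosphatases, mRNA-decay factors and NF-kB inhibitors, together with clock and metabolic genes, and over longer times it represses cytokines. Type I PRMTs, of which PRMT1 is the main enzyme, place asymmetric dimethylation on arginines of histones, RNA-binding proteins and transcription coregulators.

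The 4 libraries held 8961815 to 9503550 counts, of which 2969147 to 3422081 were on nuclear genes. The share on mitochondrial genes was 58.7% and 59.6% in MS023 alone and 60.4% and 64.2% after Dex. Without mitochondrial and ribosomal RNA genes in the fit 489 genes were called, 472 of them among the 474 of the full fit and all in the same direction. Replicates correlated across genes with r = 0.982 in MS023 alone and 0.98 with Dex. All 12 A549 markers examined, among them the keratins KRT8 and KRT18 and the aldo-keto reductases AKR1C1 and AKR1B10, had at least 10 counts in each of the 4 libraries, and KRT8 was the 1 of them called in the comparison (log2 fold change 0.38). Summed counts of 6 fibroblast, 5 leukocyte and 4 endothelial markers were 115 to 149, 32 to 71 and 14 to 37 per library, and none of these 15 genes was called in the comparison.

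Within 15 min of Dex, the glucocorticoid target genes PER1, TSC22D3, NFKBIA and ZFP36 rose by 1.77 to 2.49 on the log2 scale in MS023-treated cells. Their promoters are shown because these 4 are the named protein-coding rises with the largest fold changes for which the table of promoters holds an entry. Each sequence runs from 250 bases before to 50 bases after the RefSeq start (GRCh38.p14), 5′ to 3′ on the strand of the gene, and capitals mark a match to 1 of 5 motifs. CHST7, a chondroitin sulfotransferase gene added after its values were seen, is shown because it was the only called gene whose window held the palindromic glucocorticoid response element.
PER1 (chr17:8152355-8152654, minus strand): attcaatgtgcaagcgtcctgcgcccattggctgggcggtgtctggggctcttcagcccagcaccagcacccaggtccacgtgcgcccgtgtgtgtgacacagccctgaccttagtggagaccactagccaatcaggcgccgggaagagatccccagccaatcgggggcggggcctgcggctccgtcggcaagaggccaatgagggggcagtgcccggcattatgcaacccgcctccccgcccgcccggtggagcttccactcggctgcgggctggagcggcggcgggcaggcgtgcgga
TSC22D3 (chrX:107775939-107776238, minus strand): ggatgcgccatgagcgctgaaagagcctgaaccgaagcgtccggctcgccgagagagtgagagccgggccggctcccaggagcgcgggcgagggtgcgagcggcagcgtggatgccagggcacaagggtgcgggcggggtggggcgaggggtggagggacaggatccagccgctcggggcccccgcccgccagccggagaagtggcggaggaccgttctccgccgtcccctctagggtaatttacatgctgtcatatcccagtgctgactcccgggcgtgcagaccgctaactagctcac
NFKBIA (chr14:35404700-35404999, minus strand): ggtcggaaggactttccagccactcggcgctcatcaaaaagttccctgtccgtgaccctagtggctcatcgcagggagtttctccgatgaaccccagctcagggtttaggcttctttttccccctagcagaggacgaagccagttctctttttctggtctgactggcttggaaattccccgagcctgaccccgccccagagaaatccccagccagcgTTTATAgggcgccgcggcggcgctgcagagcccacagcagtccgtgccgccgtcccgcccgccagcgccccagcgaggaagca
ZFP36 (chr19:39406597-39406896, plus strand): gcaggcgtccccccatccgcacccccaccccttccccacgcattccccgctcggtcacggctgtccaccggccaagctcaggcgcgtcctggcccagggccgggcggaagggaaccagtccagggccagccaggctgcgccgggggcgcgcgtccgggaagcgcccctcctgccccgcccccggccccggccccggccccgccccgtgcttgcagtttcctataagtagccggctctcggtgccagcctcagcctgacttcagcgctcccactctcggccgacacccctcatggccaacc
CHST7 (chrX:46573515-46573814, plus strand): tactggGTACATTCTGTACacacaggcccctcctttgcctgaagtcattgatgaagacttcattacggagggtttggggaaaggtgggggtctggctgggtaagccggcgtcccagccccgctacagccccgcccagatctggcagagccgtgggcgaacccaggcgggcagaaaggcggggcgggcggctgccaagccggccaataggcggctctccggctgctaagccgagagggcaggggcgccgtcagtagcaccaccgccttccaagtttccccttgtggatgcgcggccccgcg

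The motifs, searched on both strands, were the palindromic element GNACANNNTGTNC, its hexamer AGAACA, the TATA box TATAAA, the AP-1 site TGANTCA and the cyclic AMP response element TGACGTCA, and a palindromic match can overlap a hexamer. The windows of PER1, TSC22D3 and ZFP36 held none of these, NFKBIA held a TATA box on the reverse strand, and CHST7 held the palindromic element starting 244 bases before the start. Each window covers a single RefSeq start, and any other start of a gene was not searched. That of TSC22D3 lies near the 5′ end of its annotated span. RefSeq promoters were matched for 187 of the 281 genes called higher, 130 of the 193 called lower and 13287 of all tested genes. The TATA box was found in 13.9% of windows of genes called higher, 3.85% of those called lower and 6.35% of all. The palindromic element was found in 0.535%, 0% and 0.211%, the hexamer in 5.88%, 6.15% and 9.46%, and the AP-1 site in 6.42%, 6.15% and 4.96%. The cyclic AMP response element was found in 4.28%, 0% and 3.01%. A match describes these letters only and says nothing of binding. CHST7 itself had 12.7 and 11.7 CPM (read counts scaled to library size by TMM) in MS023 alone and 20.6 and 20.9 after Dex, a log2 fold change of 0.76, with 0.19 for Dex without inhibitor (not called) and 0.75 after GSK591.

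After 15 min of Dex, 474 of 22919 tested genes were called against MS023 alone, which is 2.07% of those tested. Of these, 281 rose (1.23% of tested genes) and 193 fell (0.842%), by edgeR's quasi-likelihood test with Benjamini-Hochberg adjusted p under 0.05. The median log2 fold change was 0.76 among the genes that rose, -0.59 among those that fell and -0.01 over all tested genes, and 90 rises but 21 falls went beyond 1 on the log2 scale. The number of calls depended on the number of libraries and on the scaling: it was 178 and 183 without MS023 replicate 1 or 2, 256 and 191 without Dex replicate 1 or 2, 264 with DESeq2 and 71 with total counts as the only scaling. It was 715 with only the groups compared in the fit and 715 with the share of counts on processed pseudogenes as a covariate, and every gene called both there and in the full fit kept its direction. Without the filter on low counts it was 473, and the balance turned to 214 higher and 259 lower.

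PER1 (chr17:8140472-8156506 in GENCODE 29 on hg38, minus strand), which encodes a repressor of the circadian clock, had 7.72 and 5.79 CPM in MS023 alone and 35.1 and 41.0 after Dex. Both Dex libraries stood far above both controls, with a log2 fold change of 2.49 (SE 0.147, adjusted p = 2.85e-18 by edgeR's quasi-likelihood test). TSC22D3 (chrX:107713221-107777342), which encodes the anti-inflammatory leucine-zipper protein GILZ, had 20.8 and 20.9 CPM in MS023 alone and 87.6 and 93.6 after Dex. The groups did not overlap, and the log2 fold change was 2.12 (SE 0.124, adjusted p = 2.85e-18, edgeR).

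NFKBIA (chr14:35401511-35404749), whose product IκBα holds NF-kB in the cytoplasm, had 54.7 and 49.3 CPM in MS023 alone and 189 and 185 after Dex. ZFP36 (chr19:39406813-39409412), whose product tristetraprolin binds and destabilises cytokine mRNAs, had 87.2 and 78.2 CPM and then 284 and 281. In both genes the Dex libraries were well above the controls, with log2 fold changes of 1.85 (SE 0.108) and 1.77 (SE 0.11). ANGPTL4, a secreted inhibitor of lipoprotein lipase, had 18.1 and 15.2 CPM and then 52.4 and 59.3, a log2 fold change of 1.74. CAVIN2, a coat protein of caveolae, had 10.9 and 9.34 CPM and then 31.3 and 32.0 (log2 fold change 1.64), and LURAP1L had 20.6 and 20.4 CPM and then 55.6 and 64.3 (1.55).

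POU5F1 had 3.19 and 3.40 CPM in MS023 alone and 14.2 and 14.1 after Dex, a log2 fold change of 2.10. It encodes the pluripotency factor OCT4, has copies elsewhere in the genome with which reads may be shared, and overlaps TCF19 on the opposite strand, so this count is uncertain. Of the 12 largest rises, 4 were noncoding genes beside or across from a glucocorticoid target or another gene, and the use of strand in counting is not stated. AC026461.3, 4 bases from MT2A on the opposite strand, rose by 2.03 on the log2 scale, and AC012485.3, opposite PER2, by 1.93. MIR4530, 211 bases from ZFP36 on the opposite strand, rose by 1.71, and TBC1D8-AS1, across from TBC1D8, by 1.55. Their reads and those of their neighbours cannot be told apart here.

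**Figure D1:**
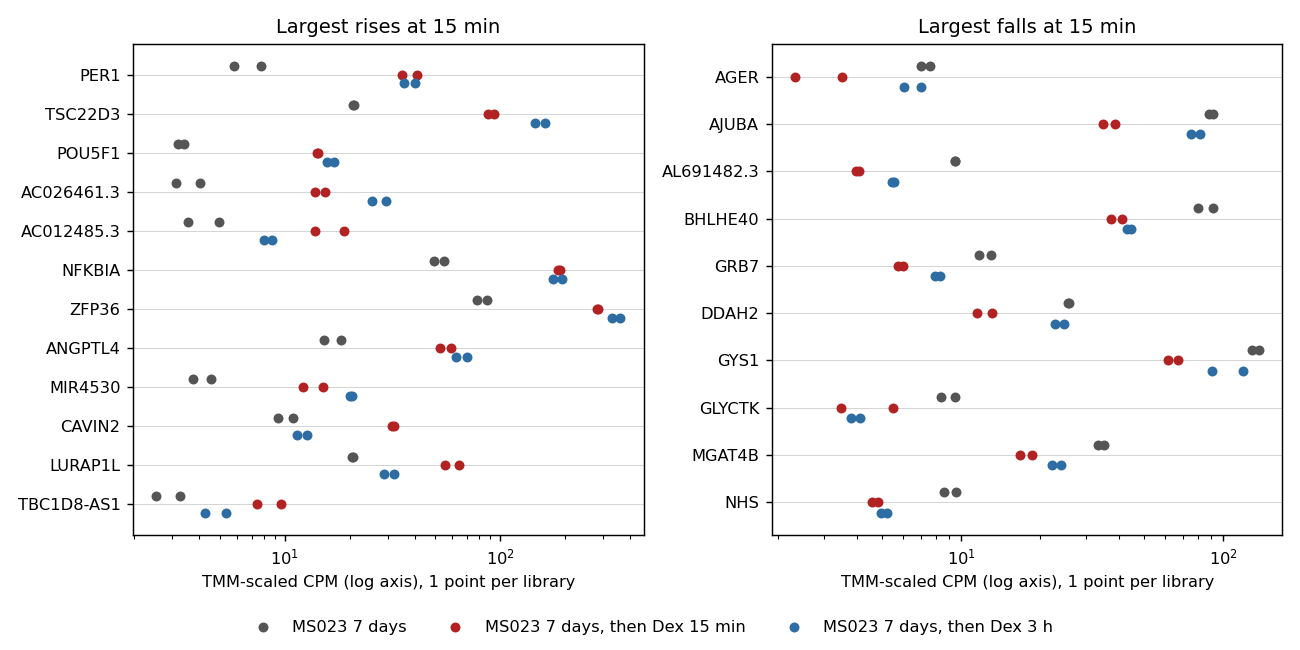
TMM-scaled CPM on a log axis (1 point per library, 2 per group) for the 12 largest rises and the 10 largest falls after 15 min of Dex in MS023-treated cells, chosen from the calls that averaged 5 CPM or more; grey is MS023 alone, red Dex 15 min and blue Dex 3 h. Both red points lie beyond both grey ones in every row, as the choice of genes required, and several blue points, such as those of CAVIN2 and AJUBA, lie near the grey ones.

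Among called genes that averaged 5 CPM or more, the largest fall (-1.31) was smaller than the largest rise (2.49). Over all called genes, without that floor, the largest fall (-5.52) went further than the largest rise (3.86). AJUBA (chr14:22971174-22982642), a LIM-domain scaffold that restrains the Hippo kinases, had 88.3 and 91.0 CPM in MS023 alone and 34.8 and 38.5 after Dex. BHLHE40, a clock-linked transcriptional repressor, had 79.9 and 91.2 CPM and then 37.1 and 41.1. In both genes the Dex libraries lay under both controls, with log2 fold changes of -1.29 (SE 0.116) and -1.13 (SE 0.12).

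GYS1, muscle glycogen synthase, had 137 and 128 CPM and then 61.2 and 67.2, and GRB7, a receptor tyrosine kinase adaptor, had 13.0 and 11.7 and then 5.74 and 5.99. Their log2 fold changes were -1.04 and -1.08. AGER, the receptor for advanced glycation end products, went from 7.01 and 7.60 CPM to 3.52 and 2.33 (log2 fold change -1.31) and was not called without Dex replicate 2. The other falls named by the rule were DDAH2 (-1.06), GLYCTK (-0.98), MGAT4B (-0.95), NHS (-0.94) and AL691482.3 (-1.23). DDAH2 overlaps CLIC1, GLYCTK overlaps WDR82, MGAT4B overlaps SQSTM1 and AL691482.3 lies within ELF3, so their counts may hold reads of those neighbours. Exons of further named genes overlap a gene on the same strand, namely PER1 (AC129492.3), AJUBA (AL132780.3), PRMT1 (ADM5), FOXO1, MT1X and BTG1, or on the opposite strand, namely TSC22D3 (NCBP2L), BHLHE40, ANGPTL4, CAVIN2, CEBPB, BCL6, TIPARP, ERRFI1, IRS2, TNFAIP3, IER2, DUSP6, PER2, WWTR1, PRMT5, CCN2, CDKN1A and NR4A1.

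Genes listed as induced by glucocorticoids mostly rose: over 3 lists, 30 of 52 tested members rose (57.7%) and 1 fell. Over all tested genes 1.23% rose. The median log2 fold change was 0.76 in the lists against -0.01 over all tested genes. The lists were written with earlier results of these data known, so their share of rises is no independent support. Among transcription regulators 11 of 18 rose and 1 fell (median 0.74), the fall being BHLHE40. Leaving out 1 of the 4 libraries left 8 or 9 rises, and total counts as the only scaling left 4. KLF6, a zinc-finger factor, had 56.7 and 59.2 CPM in MS023 alone and 143 and 160 after Dex (log2 fold change 1.39). CEBPB, a basic leucine-zipper factor of inflammatory and metabolic genes, had 42.7 and 43.9 and then 86.7 and 93.3 (1.06), and both genes were high in both Dex libraries. KLF9 rose by 0.88, BCL6 by 1.00, TFCP2L1 by 1.10, CEBPD by 0.76, TIPARP by 0.71, FOXO1 by 0.64 and FOXO3 by 0.52 on the log2 scale. KLF4 was just short of the threshold, at 0.58 with an adjusted p of 0.0527, and 5 alternatives called it (adjusted p 0.000176 to 0.0432, edgeR).

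Among signalling inhibitors and kinases, 9 of 16 rose and none fell (median 0.81), and 7 or 8 rose without 1 of the 4 libraries. DUSP1, the phosphatase that switches off p38 and JNK, had 157 and 168 CPM in MS023 alone and 392 and 440 after Dex, a log2 fold change of 1.35. SGK1, a kinase that promotes sodium uptake, had 24.6 and 25.6 CPM and then 55.6 and 50.8 (1.08). ERRFI1, which inhibits the EGF receptor, rose by 1.07, the insulin receptor substrate IRS2 by 1.14, the ubiquitin editor TNFAIP3 by 1.16, BIRC3 by 1.15 and RGS2 by 0.55.

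Among metabolic and other effectors, 10 of 18 tested members rose and none fell (median 0.84), with 8 to 10 rises without 1 of the 4 libraries. MT1E was not tested. PDK4, which inhibits pyruvate dehydrogenase, had 6.44 and 6.15 CPM in MS023 alone and 13.5 and 18.9 after Dex (log2 fold change 1.36). The metal-binding metallothionein MT2A had 10.4 and 9.48 CPM and then 25.5 and 30.5 (1.49), and MT1X rose by 1.08. These 2 genes belong to a cluster of near-identical copies, so reads may be split between members. CIDEC, a lipid-droplet protein, rose by 1.93 from 16 and 8 counts to 46 and 37. FGD4, SLC19A2, STOM and THBD rose by 1.30, 0.97, 0.76 and 0.51.

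FKBP5, a chaperone of the glucocorticoid receptor and a standard glucocorticoid target, was not called at 15 min. It had 3.82 and 5.28 CPM in MS023 alone and 8.27 and 8.99 after Dex, with a log2 fold change of 0.92 (SE 0.285, adjusted p = 0.128 by edgeR's quasi-likelihood test). The 2 groups did not overlap, and its 3 h libraries had 42.8 and 38.1 CPM. FKBP5 was called by DESeq2 (0.93, adjusted p = 0.0333) and by edgeR without the filter on low counts (0.87, adjusted p = 0.000654), with the pseudogene covariate (0.89, adjusted p = 0.00436) and with only the groups compared (0.93, adjusted p = 0.00194), and in the other alternatives its adjusted p was 0.0909 to 0.612. In the authors' deposited tables, the log2 fold change of FKBP5 against untreated cells was 1.68 after MS023 and Dex and 0.15 after MS023 alone, a difference of 1.53. The cell-cycle inhibitor CDKN1C was also not called at 15 min (-0.29) and was called higher at 3 h (1.23).

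**Figure D2:**
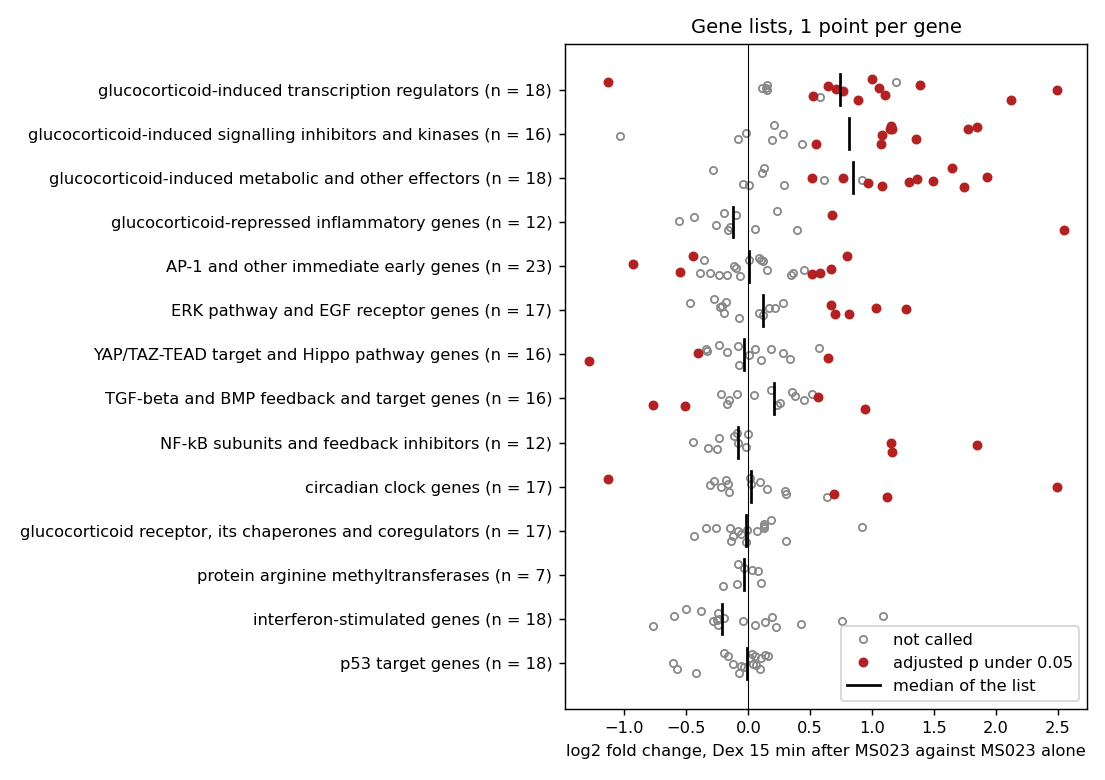
Log2 fold change after 15 min of Dex in MS023-treated cells for each tested member of 14 gene lists (1 point per gene, n tested in brackets; filled red points passed an adjusted p under 0.05, open grey ones did not, and the black bar is the list's median). The 3 glucocorticoid-induced lists lie to the right, with medians of 0.74, 0.81 and 0.84, and the other lists have medians between -0.21 and 0.20.

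No inflammatory gene of the list that glucocorticoids repress was called lower at this time. Over all tested genes 0.842% were called lower and 1.23% higher. No fall among 12 genes is near that share and sets the list apart from no other genes. Of 12 tested members 2 rose, CXCL2 and CCL20, none was called lower by edgeR or DESeq2, none was lower at an unadjusted p under 0.05, and the median was -0.13. CXCL2, a neutrophil chemokine, had 17.7 and 19.9 CPM in MS023 alone and 27.7 and 32.5 after Dex (log2 fold change 0.68, SE 0.14, adjusted p = 0.00228, edgeR). CCL20 went from 3 and 4 counts to 16 and 22, a log2 fold change of 2.55. Its difference in the authors' deposited tables, which give it no adjusted p, was 0.08. CXCL2 was not called without MS023 replicate 1 or Dex replicate 2. Among the fits with a library left out, CCL20 kept its call only without Dex replicate 1. The list had 0 rises with total counts as the only scaling and 1 with DESeq2. CXCL8, the neutrophil attractant interleukin 8, had 2.34 and 3.11 CPM and then 3.06 and 2.00, so its groups overlapped. At 3 h CXCL8 had 0.366 and 0.148 CPM, and 7 of the 12 members, CXCL2 and CXCL1 among them, were called lower than in MS023 alone.

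Growth factor signalling genes showed a small set of rises, while 1.23% of all tested genes rose. In the list of ERK pathway and EGF receptor genes 5 of 17 rose and none fell, with a median of 0.12 that became -0.03 with total counts as the only scaling, which left 1 rise, while DESeq2 gave 3. DUSP6, an ERK phosphatase, had 5.95 and 5.07 CPM in MS023 alone and 12.9 and 13.7 after Dex (log2 fold change 1.27). The feedback inhibitors SPRY2 and SPRY1 rose by 1.03 and 0.67, the phosphatase DUSP5 by 0.70 and the EGF receptor ligand AREG by 0.81. At 3 h DUSP6 had 4.61 and 5.17 CPM, beside its level in MS023 alone, and DUSP5 was called lower than in MS023 alone (-1.08).

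AP-1 and other immediate early genes moved in both directions, with 4 rises and 3 falls among 23 tested. Over all tested genes 1.23% rose and 0.842% fell. FOS, a subunit of AP-1, had 44.5 and 44.9 CPM in MS023 alone and 63.9 and 63.8 after Dex (log2 fold change 0.51), and FOSL2 rose by 0.67. BTG1 rose by 0.58 and MCL1, named in the table together with ADAMTSL4-AS1, by 0.79. IER2 fell from 47.5 and 42.8 CPM to 23.7 and 23.6 (-0.93), and IER5 and KLF10 fell by 0.45 and 0.55 on the log2 scale. Among the fits with 1 of the 4 libraries left out, FOS kept its call only without Dex replicate 1, and IER5 and KLF10 lost theirs in each. JUN and MYC did not pass the test (-0.39 and 0.35). JUN was called lower by edgeR with the replicate number as a block (adjusted p = 0.0483), without the filter (0.0254), with the pseudogene covariate (0.0134) and with only the groups compared (0.00881), and MYC was called higher in the last 2 (0.0193 and 0.00954). With total counts as the only scaling this list had 0 rises and 1 fall, and with DESeq2 4 rises and 1 fall. The list's median was 0.00.

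In 4 further lists the share of called genes was above the 2.07% over all tested genes in the full fit. The lists were written with earlier results of these data known, so this is no independent support. NFKBIA, TNFAIP3, BIRC3, PER1 and BHLHE40 were also counted in the induced lists. Of 16 YAP/TAZ and Hippo pathway genes 1 rose, the coactivator WWTR1 (0.65), and 2 fell, AJUBA and the kinase NUAK2 (-0.41). Of 16 TGF-beta and BMP genes 2 rose and 2 fell, among them ID1, an inhibitor of basic helix-loop-helix factors, which rose by 0.56, the inhibitory SMAD6, which fell by 0.51, and the ligand BMP4, which fell by 0.77. The 3 rises among 12 NF-kB genes were the inhibitors and targets NFKBIA, TNFAIP3 and BIRC3, and no subunit of NF-kB was called. Of 17 clock genes PER1, PER2 (1.12) and CRY2 (0.69) rose and BHLHE40 fell. WWTR1, NUAK2 and CRY2 were not called without any 1 of the 4 libraries. With total counts as the only scaling the 4 lists held 0, 0, 1 and 2 rises and 1, 0, 0 and 1 falls, and with only the groups compared the first 2 held 3 and 6 rises. Medians of these 4 lists were -0.04, 0.20, -0.09 and 0.02.

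No gene was called among 17 genes for the glucocorticoid receptor, its chaperones and coregulators, among 7 tested PRMT genes, among 18 tested interferon-stimulated genes or among 18 p53 targets by edgeR's quasi-likelihood test. At an unadjusted p under 0.05 these lists held 5, 0, 2 and 2 genes, and DESeq2 called 1 of them, FKBP5. Over all tested genes 2475 of 22919 had such a p and 2.07% were called. The interferon and p53 counts, 2 of 18 each, are near that share and set these lists apart from no other genes. The receptor list held more than that share, with 2 higher and 3 lower of 17. With the pseudogene covariate 1 gene of the receptor list was called higher and 1 lower. The medians of these lists, in the order first named, were -0.02, -0.03, -0.21 and -0.01. The receptor gene NR3C1 had 69.9 and 65.5 CPM in MS023 alone and 56.5 and 56.6 after Dex, lower in both Dex libraries but not past the test (-0.26, adjusted p = 0.285 by edgeR). PRMT1, which encodes the main enzyme MS023 inhibits, had 45.8 and 43.4 CPM and then 41.5 and 45.6, and PRMT5, the target of GSK591, had 7.79 and 7.96 and then 7.65 and 7.16. The inhibitor acts on the enzyme, so these levels do not check it.

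Most genes called after MS023 had a fold change of the same sign without it. Dex at 15 min called 289 genes against untreated cells (1.26% of those tested; 220 higher, 0.96%, and 69 lower, 0.301%) and 480 after GSK591 (2.09%; 245 higher, 1.07%, and 235 lower, 1.03%). These comparisons share no library with the MS023 pair. The GSK591 count depended on the fit. It was 170 with only its groups in the fit (77.6% higher), 72 with total counts as the only scaling (91.7% higher) and 284 with DESeq2 (55.3% higher). Without inhibitor these settings gave 325, 261 and 212. Replicates correlated with r = 0.974 in GSK591 alone and 0.964 with Dex, lower than in the MS023 pair. The overlaps with the GSK591 calls carry the same limit. The MS023 comparison and the one without inhibitor called 160 genes in common, which is 33.8% of the MS023 calls and 55.4% of the others, and all 160 had the same direction. With GSK591 the shared calls were 191, 40.3% and 39.8% of each set, again all in the same direction, and 96 rises and 24 falls were called in all 3 comparisons.

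Of the 281 genes that rose after MS023, 264 had a fold change above 0 without inhibitor and 269 after GSK591. Of the 193 that fell, 173 and 178 were below 0. Their median size in either direction was 0.68 on the log2 scale after MS023, the comparison that chose them, 0.46 without inhibitor and 0.49 after GSK591, and these sizes are not compared for that reason. Across these 474 genes, which are not independent of each other, the fold changes correlated with r = 0.75 and 0.79, and across all 11008 genes that averaged 5 CPM or more with r = 0.476 and 0.482.

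PER1 rose by 2.10 without inhibitor and 2.68 after GSK591, beside 2.49 after MS023. NFKBIA rose by 1.30 and 1.45, beside 1.85, and DUSP1 by 1.01 and 0.71, beside 1.35. KLF6 rose by 1.68 and 1.55, beside 1.39, and AJUBA fell by 1.18 and 1.17, beside 1.29 after MS023. Tested as differences, none of these 5 genes was called: the response after MS023 minus that without inhibitor was 0.39 for PER1 (95% interval -0.03 to 0.81), 0.55 for NFKBIA (0.25 to 0.85) and 0.35 for DUSP1 (0.04 to 0.66), with adjusted p of 1, 0.807 and 1 by edgeR's quasi-likelihood test. For KLF6 the difference was -0.29 (-0.59 to 0.01) and for AJUBA -0.10 (-0.44 to 0.23). The intervals are not adjusted for the number of genes.

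**Figure D3:**
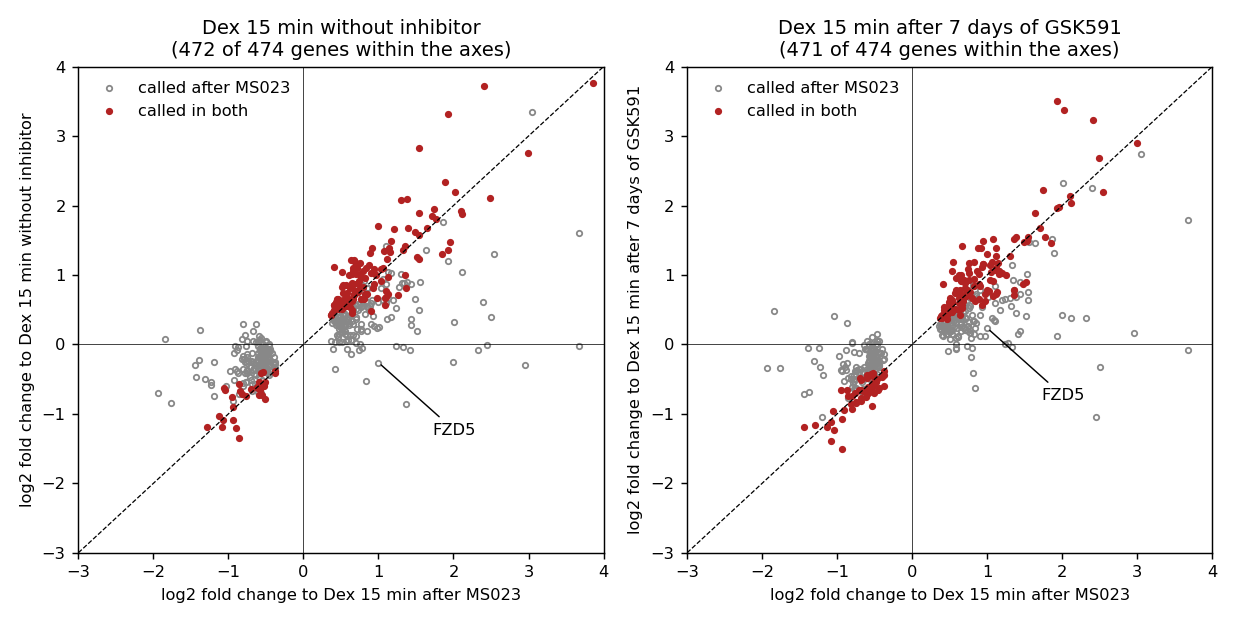
Log2 fold change to 15 min of Dex after MS023 (x axis) against that without inhibitor (left) or after GSK591 (right) for the 474 genes called after MS023, of which 472 and 471 lie within the axes; red points were called in both comparisons and the dashed line marks equal change. The 160 and 191 red points all have the same sign on both axes, and FZD5 lies under the dashed line in both.

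FZD5, a Frizzled receptor for Wnt ligands (chr2:207762586-207769563, minus strand), was the 1 gene of 22919 (0.00436%) whose response to Dex was called different after MS023 and without inhibitor. It had 21.6 and 19.5 CPM in MS023 alone and 40.1 and 42.0 after Dex, and 13.7 and 16.1 CPM in untreated cells and 14.0 and 10.9 after Dex alone. After MS023 both Dex libraries were above both controls, while without inhibitor the groups overlapped. The log2 fold change was 1.00 after MS023 and -0.26 without inhibitor, a difference of 1.26 (95% interval 0.87 to 1.65, adjusted p = 0.00112 by edgeR's quasi-likelihood test).

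The FZD5 call was lost without untreated replicate 2 (difference 1.12, adjusted p = 0.109), without Dex replicate 2 of the cells without inhibitor (1.08, adjusted p = 0.11) and with total counts as the only scaling (0.80, adjusted p = 0.376). Over the alternatives that kept it, the adjusted p by edgeR or DESeq2 ranged from 4.12e-05 to 0.0399. After GSK591 FZD5 changed by 0.24, from 17.7 and 16.2 CPM to 21.9 and 18.4, and its response after MS023 was not called different from that (difference 0.76, 0.38 to 1.15, adjusted p = 0.501). At 3 h after MS023 it had 43.6 and 44.4 CPM. No member of the 14 gene lists was called for a difference from the response without inhibitor or after GSK591. Across all genes, 1023 had an unadjusted p under 0.05 for the difference from cells without inhibitor. For MS023 against GSK591 none of 22919 genes (0%) was called by edgeR or by DESeq2, with 1368 at an unadjusted p under 0.05.

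Some genes were called without inhibitor but not after MS023, with no difference called between the responses. CCN2, a matricellular YAP target, had 7.56 and 11.4 CPM in untreated cells and 18.7 and 18.6 after Dex, whereas after MS023 it had 23.4 and 24.0 CPM and then 24.7 and 22.8. Its level in MS023 alone already stood above the level that Dex gave without inhibitor, and the difference of responses was -0.96 (adjusted p = 0.162, edgeR). CDKN1A, the p21 cell-cycle inhibitor, had 10.3 and 11.1 CPM and then 21.1 and 21.7 without inhibitor, and 19.3 and 14.2 and then 17.8 and 18.0 after MS023 (difference -0.90, adjusted p = 0.267). NR4A1, an orphan nuclear receptor, had 21.4 and 22.2 CPM and then 11.5 and 13.9 without inhibitor, and 6.73 and 6.88 and then 8.88 and 8.57 after MS023 (difference 1.14, adjusted p = 0.162). ANKRD1, another YAP target, rose by 1.23 without inhibitor and did not pass the test after MS023 (0.57), except with only the groups compared (0.58, adjusted p = 0.0187, edgeR).

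**Figure D4:**
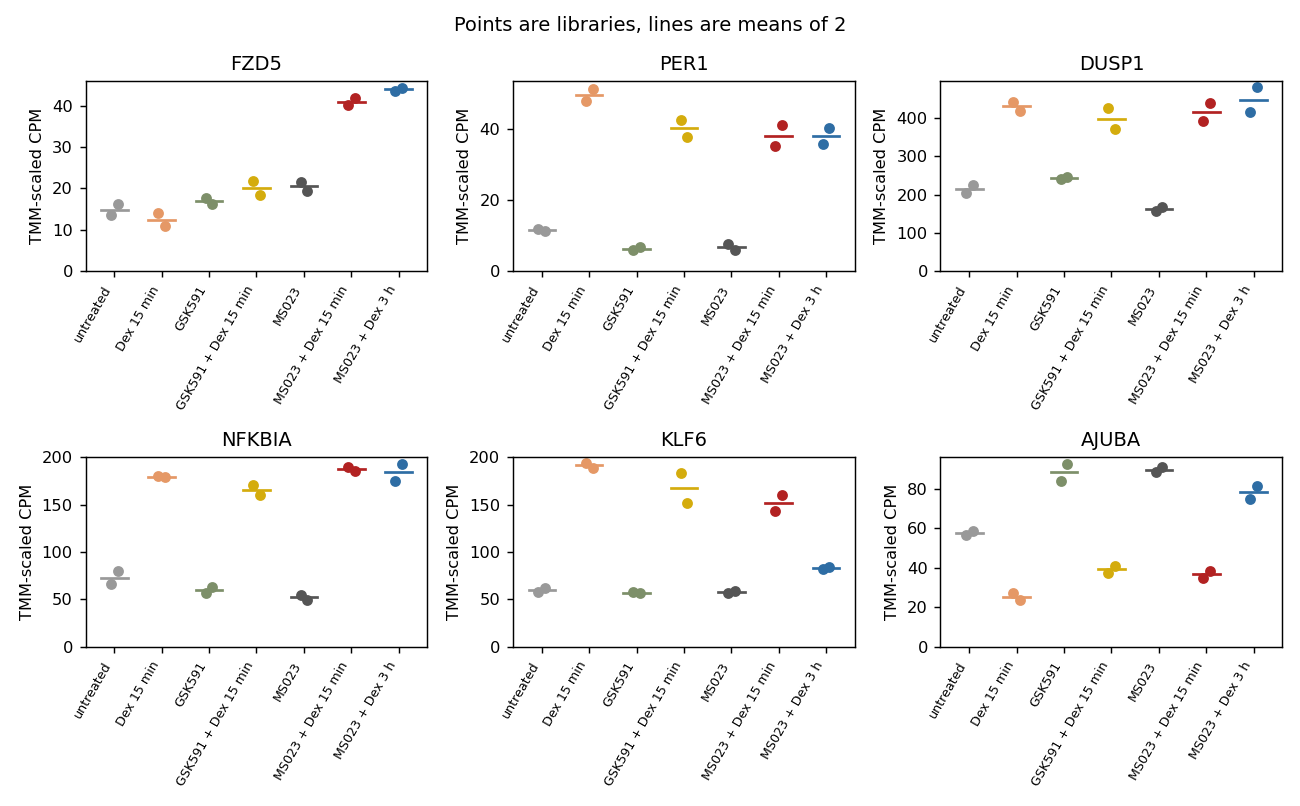
TMM-scaled CPM from 0 for FZD5, PER1, DUSP1, NFKBIA, KLF6 and AJUBA in 7 groups (points are libraries, lines the means of 2). FZD5 is high in the 2 groups with MS023 and Dex, at 40.1 to 44.4 CPM, while the other 5 genes change in the same direction in all 3 pairs with and without 15 min of Dex.

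By 3 h the response was wider, and few genes called at 15 min were called in the other direction against MS023 alone. Dex at 3 h after MS023 called 2543 genes against MS023 alone (11.1%; 1310 higher, 5.72%, and 1233 lower, 5.38%). Directly against 15 min, 2949 genes were called (12.9%; 1661 higher, 7.25%, and 1288 lower, 5.62%), a comparison that shares the 15 min libraries with the main one. Without Dex 15 min replicate 1 or 2 that count was 1717 and 1862, without Dex 3 h replicate 1 or 2 it was 1769 and 1708, with DESeq2 1653 and with total counts as the only scaling 1239. Of the 281 genes that rose at 15 min, 192 were also called higher at 3 h against MS023 alone, 6 were called lower and 83 were not called. Of the 193 that fell, 59 were also called lower, 17 higher and 117 not, and these counts share the libraries of MS023 alone. Over all tested genes 5.38% were called lower and 5.72% higher. Shared libraries favour a call in the same direction, so the 6 of 281 and the 17 of 193 are not read against those shares. Set against 15 min instead, 57 of the 281 were called higher and 65 lower. Of the 193, 111 were called higher than at 15 min and 14 lower. Those counts share the 15 min libraries, which favours a move back.

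Individual genes followed different courses. TFCP2L1 had 2.27 and 2.32 CPM in MS023 alone, 5.59 and 4.24 at 15 min and 34.7 and 34.4 at 3 h, and TSC22D3 had 145 and 161 CPM at 3 h, above 15 min. PER1 stood at 35.7 and 40.2 CPM at 3 h, overlapping its 15 min level. CAVIN2 had 11.4 and 12.7 CPM, BCL6 7.84 and 6.72 and KLF6 81.7 and 83.8 at 3 h, all 3 called lower than at 15 min (-1.39, -0.78 and -0.87). AJUBA had 74.9 and 81.4 CPM and DDAH2 24.8 and 22.8 at 3 h, both called higher than at 15 min (1.09 and 0.95), while BHLHE40 stayed low at 43.1 and 44.6 CPM.

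Few long genes fell at 15 min. Of 3192 tested genes over 100 kb, 63 rose (1.97%) and 4 fell (0.125%), while of 8982 genes under 10 kb 107 rose (1.19%) and 94 fell (1.05%). The 4 long genes that fell, named after their values were seen because they are few, were NHS (-0.94), TRAPPC9 (-0.63), CCND3 (-0.47) and PKP4 (-0.45). The median length was 20.9 kb for genes that rose, 10.5 kb for those that fell and 17.2 kb for all tested, and the median level was 16.8, 17.6 and 4.55 CPM. Without inhibitor 0.971% of genes over 100 kb rose and 0.0627% fell, and after GSK591 1.32% and 0.251%. At 3 h after MS023 the shares over 100 kb were 6.58% and 7.49%.

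The counts over 100 kb followed the number of calls: 18 rises and 1 fall without MS023 replicate 1 or 2, 38 and 1 without Dex replicate 1, 22 and 0 without Dex replicate 2, 37 and 2 with DESeq2 and 5 and 0 with total counts as the only scaling. Over 7471 protein-coding genes, the deposited counts had a slope of 0.425 on exonic and -0.187 on intronic length, all on the log2 scale. The mean signal in the authors' deposited table had slopes of 0.33 and 0.224, so the 2 sources weigh introns differently, and the part of this in the length pattern was not tested.

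**Figure D5:**
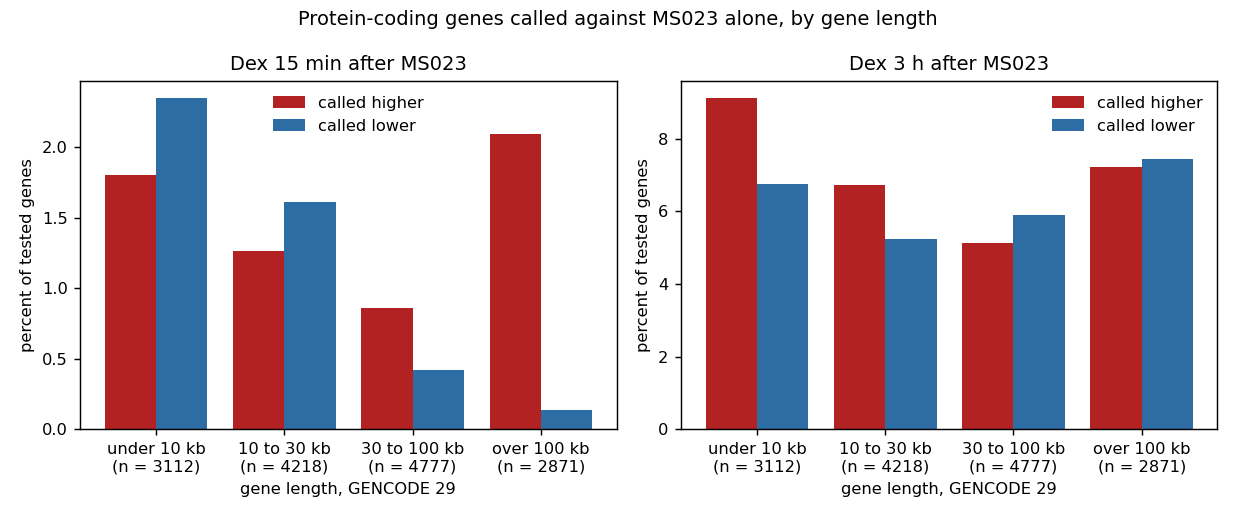
Percent of tested protein-coding genes called higher (red) or lower (blue) than MS023 alone after 15 min (left) and 3 h (right) of Dex, by gene length in GENCODE 29, with the number tested under each bar pair; both axes start at 0 and differ in range, and both panels share the libraries of MS023 alone. At 15 min the share called lower goes from 2.35% under 10 kb to 0.139% over 100 kb, and at 3 h it is 6.75% and 7.45%.

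In the authors' deposited tables, which compare each treatment with untreated cells, 59 of the 69 named genes called here were found under the same name. The difference between their log2 fold changes for MS023 then Dex and for MS023 alone had the same sign as the value here in all 59. Those tables are of the same series and the genes were chosen by their calls here, so the shared sign is no independent check. For PER1 the authors' deposited tables gave a difference of 3.00, for NFKBIA 1.96, for AJUBA -1.26 and for FZD5 0.85. Those fold changes may have been estimated otherwise than the ones here, so their sizes may not be alike. The largest gap was that of CCL20, at 0.08 in the authors' deposited tables, which give it no adjusted p, and 2.55 in the counts. CIDEC and STOM were larger in the authors' deposited tables (3.09 and 1.92) than in the counts (1.93 and 0.76), and GYS1 and DDAH2 were closer to 0 there (-0.23 and -0.14) than in the counts (-1.04 and -1.06).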

How the data were processed

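The PRO-seq data of A549 cells were taken as deposited. The deposited gene counts are whole numbers, not normalised, made with featureCounts 2.0.1 on hg38 per the submitters' processing notes; the aligner, feature type and use of strand are not given in the sources used here. All 58780 identifiers matched GENCODE 29. The authors' deposited tables against untreated cells hold log2 fold changes, p-values and a mean signal; per the file headers their column names are those of DESeq2. Counts were tested with edgeR 4.0.16 (R 4.3.3, limma 3.58.1; quasi-likelihood, robust, TMM, filterByExpr with a minimum count of 10 and total of 15), in 1 fit over 30 libraries in 15 groups with 15 residual degrees of freedom, adjusted by Benjamini-Hochberg at 0.05 over 22919 genes. DESeq2 1.42.0 was an alternative. The scripts were tested on simulated data. Intervals are 95% and unadjusted. No molecular identifiers are mentioned.

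Named were PER1, FKBP5, TSC22D3, NR3C1, PRMT1 and PRMT5, 12 rises and 10 falls, taken by size from calls that averaged 5 CPM or more without overlap between groups, genes called in an interaction, and list members. The comparison, lists and rules were chosen with earlier results of these data known. Replicate numbers only name libraries. No 2 libraries of a group agreed within sampling noise. Alternatives were other scalings, filters, fits, tools and libraries left out. The result of 1 named gene is not reported here.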

Additional observations from a re-analysis of the deposited data

Results flagged for a closer look

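In the full fit FZD5 was the single gene whose response to 15 min of Dex was called different after MS023 from the response without inhibitor (log2 difference 1.26, adjusted p = 0.00112 by edgeR's quasi-likelihood test). Both Dex libraries after MS023, at 40.1 and 42.0 CPM, were above both libraries of MS023 alone, at 21.6 and 19.5 CPM. Leaving out single libraries gave differences from 1.08 to 1.45, and the call did not hold in each of these fits. Total counts as the only scaling gave 0.80 and no call (adjusted p = 0.376, edgeR). Other settings called more genes for this difference: 4 with only the groups compared, 7 without a filter and 11 with the pseudogene covariate.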

How the results depend on the processing

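Each group had 2 libraries, with 2969147 to 3422081 nuclear counts in the 4 compared, and a gene or difference not called is not shown to be unchanged. None of the 69 named genes called changed sign in 827 alternative values, but total counts as the only scaling lost 35 of these calls, DESeq2 9, no filter 2 and a left-out library 13 to 22; of 163 named genes not called, 75 changed sign under some setting and none was called after it. With total counts the median of all genes was -0.15, and -0.47, -0.19 and 0.13 in the differences from cells without inhibitor, from GSK591 and from 15 min to 3 h. In the full fit these medians were -0.0071, -0.0069, 0.0028 and -0.0027. The causes were not tested.

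For Dex at 15 min after MS023 (474 calls, 281 higher and 193 lower), total counts gave 71 (44 and 27), DESeq2 264 (168 and 96), only the groups compared 715 (427 higher), the pseudogene covariate 715 (315 lower), no filter 473 with 45.2% instead of 59.3% higher, and a left-out library 178 to 256 (115 to 190 higher, 53 to 70 lower). With a replicate block on the numbers, whose deviations correlated with r = 0.0265, it gave 509, and the block ended no named call and added JUN (-0.3892, adjusted p = 0.0483). The difference from cells without inhibitor (1 call, higher) had 0 with total counts, 7 without a filter (3 higher, 4 lower), 11 with the covariate (4 and 7), 4 with only the groups compared (4 and 0) and 0 to 2 with a library left out (0 to 2 higher, 0 to 1 lower). The difference from GSK591 (0 calls) had 2 without a filter (1 and 1) and 0 to 1 with a library left out. From 15 min to 3 h (2949; 1661 and 1288), total counts gave 1239 (943 and 296), DESeq2 1653 (940 and 713) and a left-out library 1708 to 1862 (899 to 1117 higher, 652 to 818 lower).

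List medians changed sign with total counts (immediate early -0.1401, ERK -0.0289, clock -0.1252), without a filter (repressed 0.0002, immediate early -0.0064, clock -0.0311) and with only the groups compared (p53 0.0026). With a library left out, the median ranged from -0.116 to 0.0782 for repressed genes, -0.0645 to 0.019 for immediate early, -0.0437 to 0.0037 for YAP, -0.0681 to 0.1513 for clock, -0.0968 to 0.0664 for receptor, -0.0588 to 0.0408 for PRMT, -0.1401 to 0.0219 for NF-kB, -0.1246 to 0.0062 for interferon and -0.1308 to 0.046 for p53 genes. Uncalled genes changed sign with total counts (CXCL1 -0.0943, CCN2 -0.1361, CDKN1A -0.0508) and without a filter (CCN2 -0.0508), and with a library left out ranged from -0.1123 to 0.0466 (PRMT1), -0.0435 to 0.0508 (CCN2), -0.4303 to 0.1609 (CXCL8), -0.0906 to 0.2242 (CXCL1) and -0.1075 to 0.3405 (CDKN1A).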
